A study of Mus musculus with 6 samples.

Results

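In liver cells of wild-type (WT) mice given a high-fat diet (HFD), the largest T cell clone was a CD8 T cell clone that held 67.1% of the Il10 transcripts and 83.0% of the Glp1r transcripts counted in its library. Its members were chosen by their T cell receptor (TCR): barcodes with a TRB contig of TRBV13-3 and TRBJ1-4, a TRA contig of TRAV7-5 and TRAJ26 or of TRAV7D-2 and TRAJ21, and the clonotype most frequent among them. That rule gave 83 of 6479 barcodes, and 77 of 6183 cells after filtering. The clone was singled out for its size and for its Il10, Glp1r, Gzmk and Pdcd1 levels, so those values are given as a description. The series compared liver mononuclear cells of WT mice fed a 60% HFD, WT mice fed that diet plus 0.25% of the bile acid hyodeoxycholic acid (HDCA), and Jα18-/- mice, called iNKT KO, fed the diet with HDCA. The knockout lacks invariant natural killer T (iNKT) cells, whose receptor uses that segment. Feeding lasted 12 weeks in all 3 groups. The design text names sorting for CD45, while the treatment text names CD4, and the clone carried CD8. A group was 1 RNA library with 1 TCR library. How many mice were pooled for it is not stated in the labels, and without replicates no test between groups or cells was run. Every interval below is a 95% interval that covers counting error only.

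Interleukin-10 (IL-10), the product of Il10, is a cytokine that restrains inflammation and is made by several kinds of T cells, B cells and macrophages. GLP-1, a gut hormone released after meals, acts through the receptor encoded by Glp1r, which signals through cyclic AMP and is best known from pancreatic beta cells. CD8 T cells that meet antigen for a long time take on a state called exhaustion, with the inhibitory receptors PD-1 (Pdcd1), TIM-3 (Havcr2) and LAG-3 (Lag3), the regulator TOX and little TCF-1 (Tcf7).

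The receptor sequences are shown because they define the clone. Each is the CDR3, the loop that joins V to J and contacts antigen, written 5′ to 3′ from the conserved cysteine codon to the conserved phenylalanine codon. Capitals mark bases in neither a start shared with at least 3 other CDR3s of the same V segment nor an end shared with at least 3 others of the same J segment.
TRAV7-5/TRAJ26: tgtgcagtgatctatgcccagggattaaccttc
TRAV7D-2/TRAJ21: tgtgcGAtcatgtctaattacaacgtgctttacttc
TRBV13-3/TRBD1/TRBJ1-4: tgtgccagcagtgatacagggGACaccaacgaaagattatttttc

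All 83 members carried the TRAV7-5 sequence, of 33 bases, and the TRB sequence, of 45 bases, and 82 also carried the TRAV7D-2 sequence, of 36 bases. Members had a single TRB contig. The TRB contig had 3 to 77 unique molecular identifiers (UMIs, counted transcripts) per member, with a median of 17. The TRAV7-5 contig had 2 to 41 (median 13) and the TRAV7D-2 contig 3 to 42 (median 10). The first alpha sequence had 0 junction bases by this measure, the second 2 and the beta sequence 3. A further 5 WT HFD barcodes carried the rule's contigs outside the clonotype, and each of them had a second TRB contig.

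None of the 3 sequences was found in the WT HFD+HDCA or iNKT KO HFD+HDCA library. With the clone included, barcodes with a TRBV13-3 contig made up 10.3% of WT HFD barcodes with TRB, against 6.37% and 7.69% in those libraries. TRAV7-5 was in 6.33% of WT HFD barcodes with TRA and 1.54% of WT HFD+HDCA ones, but in 0 of 2012 in the iNKT KO library. No TRAV7-5 sequence could thus be found there, so its absence from that library is not informative about the clone. Within WT HFD, 2 other TRAV7-5/TRAJ26 CDR3s, each in 1 barcode, differed from the clone's by 1 amino acid, and no such neighbour was found for the other chains. The RNA library also counted the V segments. Trbv13-3 had 1512 UMIs and Trav7-5 1129 UMIs in the clone, each detected in 77 of 77 cells.

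The clone made up 3.58% (2.83 to 4.45%) of the 2153 kept WT HFD cells with both chains and 1.25% of all kept cells. The next largest WT HFD clonotype had 17 kept cells. Clone cells had a median of 8241 UMIs (2564 to 25531) and 2799 genes. They were set against the 243 other WT HFD cells with TRA, TRB and at least 1 Gzmk UMI, which had a median of 6288 UMIs (1694 to 29668) and 2397 genes. Of these, 67 had exactly 1 Gzmk UMI, while 1833 further cells with both chains had 0 and fell outside. The comparison group was mixed: 174 cells had CD8 and no Cd4 UMIs, 42 had a Cd4 UMI and 8 carried an iNKT-type receptor. A level is the summed UMIs of a gene per 1000000 summed UMIs of the group (CPM), and a ratio is the clone's level over that of the other Gzmk-positive T cells.

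The libraries held 6479, 10228 and 7153 barcodes with 44332213, 70776925 and 46600746 UMIs, with WT HFD first, WT HFD+HDCA second and the iNKT KO library last. WT HFD shared 73 barcodes with WT HFD+HDCA and 67 with iNKT KO HFD+HDCA. 1 clone barcode recurred in each of the other libraries, without the clone's receptor. Markers of other cells were present in a few kept clone cells: 5 of 77 had at least 2 UMIs of Cd79a, Ms4a1, Lyz2 and Csf1r together, against 8 of 243 comparison cells. A single clone barcode held 500 of the 503 Lyz2 UMIs. Summed over their lists, B cell markers stood at 279 CPM in the clone and 292 CPM in the comparison cells, monocyte or macrophage markers at 1177 and 1046 CPM, and NK cell markers at 339 and 386 CPM. Of 4 monocyte or macrophage markers at a mean of at least 20 CPM in the 2 groups, 2 were at least 2-fold higher, Lyz2 (33.7) and Cd68 (2.98, in 31.2% against 10.7% of cells), and 1 lower, Ly6c2 (0.246), with a median log2 ratio of 1.17. Ighm of B cells (0.462) and Pecam1 of endothelium (0.273) were lower. Their part in the results was not tested beyond leaving out the 5 and 8 marked cells. The neutrophil and erythroid markers, Alb of hepatocytes and Kdr of endothelium were at 0 in the clone. Without the marked cells in both groups, the Il10 ratio was 14.3 and the Glp1r ratio 35.4.

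The clone was CD8 by its transcripts. Cd8a was at 833 CPM in the clone and 425 CPM in the comparison cells, and Cd8b1 at 1314 and 1049 CPM, both with a UMI in 77 of 77 clone cells. Cd4 had 1 UMI in the clone, and Foxp3, which defines regulatory T cells, had 3 UMIs in 1 cell. Zbtb16, the factor of iNKT cells, had 0. The CD3 genes were all higher, with ratios of 1.28 (Cd3d), 1.90 (Cd3e) and 2.21 (Cd3g). The constant segments Trac, Trbc1 and Trbc2 had ratios of 2.17, 3.33 and 2.08.

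Il10 was 13.9 times as high in the clone as in other Gzmk-positive T cells (8.49 to 24.1). The clone had 104 Il10 UMIs in 33 of 77 cells, or 42.9% of cells (31.6 to 54.7%), and a level of 144 CPM (117 to 174). The comparison cells had 19 UMIs in 10 of 243 cells, or 4.12%, and a level of 10.3 CPM. Il10 was uneven within the clone: 44 cells had 0 UMIs, 17 had 1, 16 had 2 or more, and the highest had 17, or 16.4% of the clone's Il10. Without that cell the ratio was 11.8. The 4 cells with the most Il10, of 9 to 17 UMIs each, held 53 of the 104 UMIs, and without them, a choice made after seeing the data, the ratio was 7.17 (4.16 to 12.9). With every cell thinned to 2000 UMIs, 16.9% of clone cells and 1.65% of comparison cells had an Il10 UMI.

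Glp1r was detected in 25 of 77 clone cells, or 32.5% (22.2 to 44.1%), and in 3 of 243 comparison cells, or 1.23%. It had 39 UMIs in the clone, with at most 3 in a cell, and 3 UMIs in the comparison cells. The levels were 53.9 CPM (38.4 to 73.7) and 1.63 CPM (0.336 to 4.76), a ratio of 33.1 with a wide interval (10.5 to 167). After thinning, 7.79% of clone cells and 0 of 242 comparison cells had a Glp1r UMI, a level at least 6.29-fold higher in the clone against a floor of 3 counts over the group. That value rests on 6 clone cells, and the lower limit of the exact interval was 3.7. The size of the Glp1r difference was known only within a wide range.

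**Figure D1:**
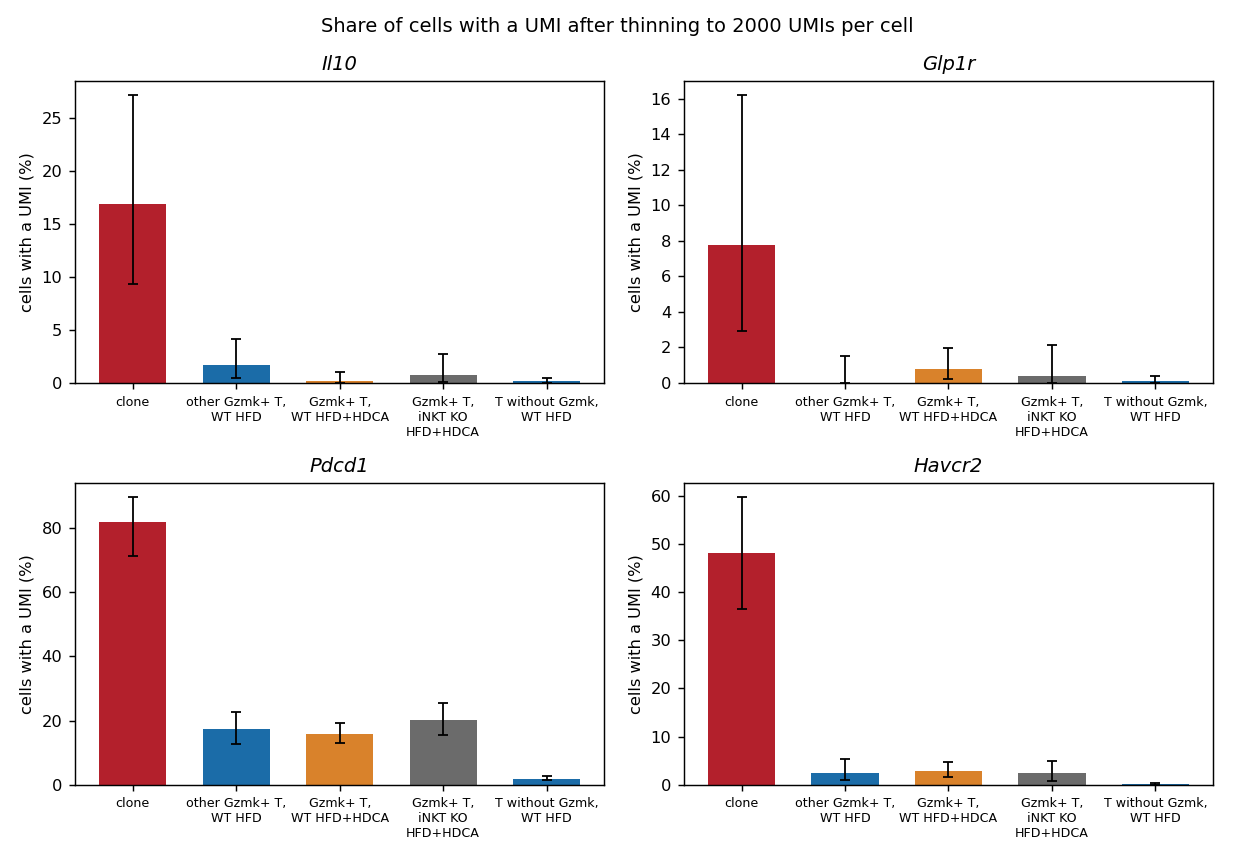
Share of cells with at least 1 UMI (%) of Il10, Glp1r, Pdcd1 and Havcr2 after thinning every cell to 2000 UMIs, for the clone, for other T cells with TRA, TRB and Gzmk in the 3 libraries, and for WT HFD T cells without a Gzmk UMI. Bars are the shares and error bars exact 95% binomial intervals over cells; for Il10 the clone stands at 16.9% and the other WT HFD Gzmk-positive T cells at 1.65%.

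B cells and NK cells were taken as a background for Glp1r. Glp1r was in 0 of 2068 WT HFD B cells (median 4539 UMIs), where the floor of 3 counts is 0.145% of cells and the exact upper limit 0.178%. It was in 0 of 676 NK cells (median 5666 UMIs), where the floor is 0.444%. These values concern cells with a UMI, not cells that express the gene. Il10 was in 8 of 2068 B cells, or 0.387%, and in 0 of 676 NK cells. In monocytes and macrophages (median 9417 UMIs) it was in 3 of 311, or 0.965%. Among WT HFD T cells without a Gzmk UMI (median 7344 UMIs), Il10 stood at 1.15 CPM, with a UMI in 0.655% of cells. Glp1r stood at 0.203 CPM, with a UMI in 0.109%. The clone's shares were above each of these shares. Clone cells were deeper (median 8241 UMIs) than all these groups but the monocytes and macrophages. The clone was chosen for these genes, so this is a description.

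Most UMIs of both transcripts in the WT HFD library were in the clone. Of the 155 Il10 UMIs in kept WT HFD cells 104 were in the clone, or 67.1% (59.1 to 74.4%), and of 47 Glp1r UMIs 39, or 83.0% (69.2 to 92.4%). Over all kept cells, the Il10 level was 3.76 CPM in WT HFD, 2.31 CPM (1.96 to 2.71) in WT HFD+HDCA and 1.16 CPM (0.858 to 1.52) in the iNKT KO library. Without the clone, WT HFD stood at 1.26 CPM. Glp1r stood at 1.14 CPM in WT HFD, and at 0.186 CPM (0.0962 to 0.325) and 0.208 CPM (0.0951 to 0.395) in the others. Without the clone WT HFD stood at 0.198 CPM. The clone was chosen for its levels of these genes, so leaving it out lowers WT HFD by construction while the other libraries keep all their cells, and the values without it are not compared with theirs.

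Across all 6359 genes at a mean of at least 20 CPM in the 2 groups, 316 (4.97%) were at least 2-fold higher in the clone and 339 (5.33%) at least 2-fold lower. The median log2 ratio was 0.0088. Ratios below are read against these shares.

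Of the genes higher in the clone, the one with the highest ratio under the naming rule was Coch, which encodes the secreted protein cochlin. It had 193 UMIs in 49 of 77 cells against 19 UMIs in 10 of 243, a ratio of 25.9 (16.1 to 43.9). Adgrg1, an adhesion G protein-coupled receptor of cytotoxic lymphocytes also called GPR56, followed at 23.9 (130 against 5.43 CPM). Ms4a4a, a membrane protein better known from macrophages, had a ratio of 18.9 with UMIs in 64.9% against 4.53% of cells, and Neb, the muscle protein nebulin, one of 18.7. Rgs16, which dampens G protein signalling, stood at 6.67, the cell cycle checkpoint gene Sfn at 6.09 and the redox enzyme Glrx at 5.94. Gng3, a G protein gamma subunit gene, had a ratio of 9.85. In the RefSeq gene table Gng3 overlaps Bscl2, and Adgrg1, Neb and Glrx overlap gene models, so their reads may be shared.

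Among the 10 lowest ratios under the rule were 4 genes of the naive and progenitor list: Il7r, Tcf7, Xcl1 and Lef1. Crtam, an adhesion receptor of activated T cells, had 1 UMI in the clone and 169 in the comparison cells, a ratio of 0.0151 (0.000379 to 0.0851). Il7r, the receptor for the survival cytokine IL-7, stood at 8.30 against 345 CPM, and was in 3.90% against 47.3% of cells. Il18rap, part of the IL-18 receptor, had 2 against 165 UMIs, a ratio of 0.0309 (0.00371 to 0.113). Cd226, an activating receptor that shares ligands with TIGIT, stood at 15.2 against 211 CPM. Slco3a1 (3 against 220 UMIs, ratio 0.0347, 0.00711 to 0.103), Samd3 (3 against 170 UMIs, 0.0449, 0.00918 to 0.134) and Tespa1, a gene of TCR signalling (5 against 215 UMIs, 0.0592), were lower too.

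**Figure D2:**
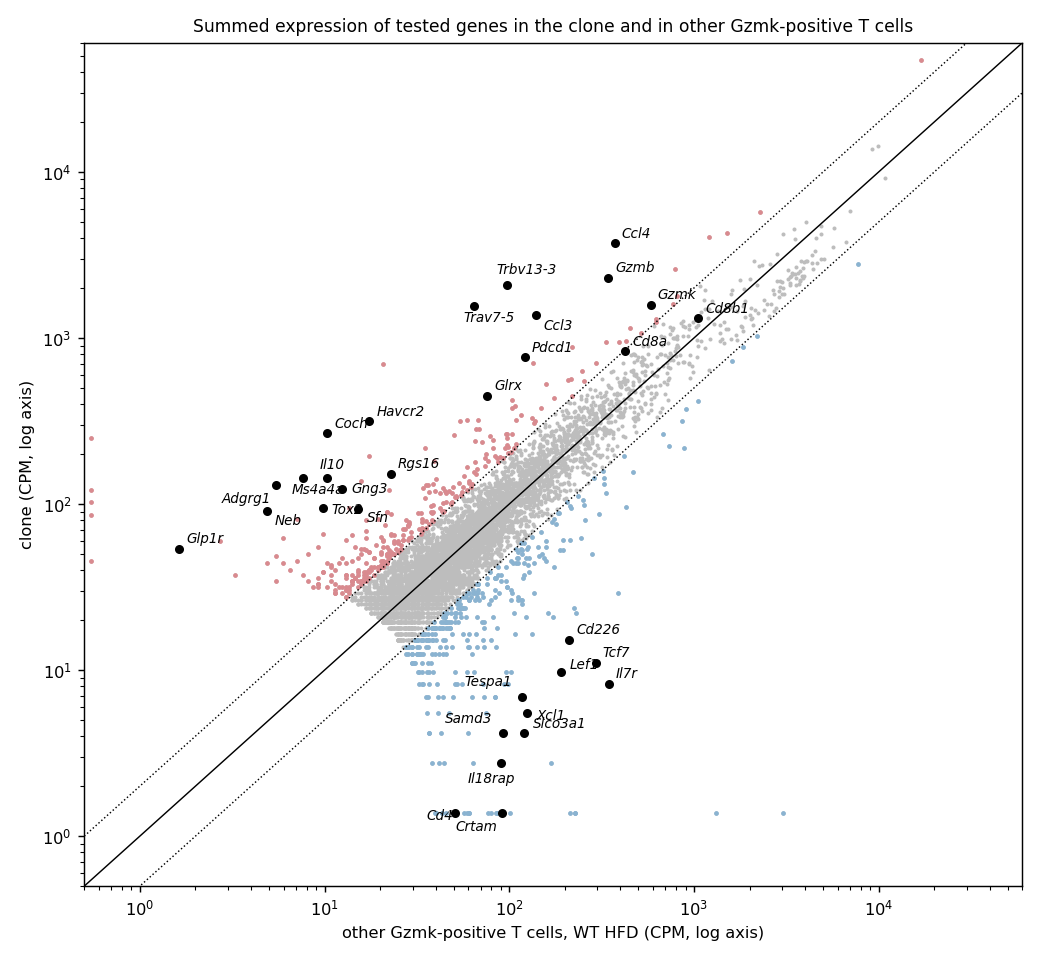
Level of each of 6359 tested genes in the clone (vertical, CPM, log axis) against other WT HFD Gzmk-positive T cells (horizontal, CPM, log axis). Red and blue points are at least 2-fold higher or lower, dotted lines mark 2-fold, black points are the named genes, and a gene at 0 is drawn at the level of 1 UMI in that group; Glp1r, Adgrg1 and Coch lie far above the diagonal and Il7r, Tcf7 and Crtam far below it.

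Of 15 inhibitory receptor genes, 9 were at least 2-fold higher and 3 at least 2-fold lower, with a median log2 ratio of 1.49, against 4.97% and 5.33% of all genes and a median of 0.0088. Pdcd1 was among the genes that chose the clone; without it 8 of 14 were higher, with a median of 1.28. Havcr2, at 314 CPM in the clone and 17.4 CPM in the comparison cells, had a ratio of 18.1 (12.4 to 27.0), with 0 to 9 UMIs per clone cell and a median of 3. Pdcd1, at 768 against 121 CPM, was 6.34 times as high (5.42 to 7.44), with 0 to 24 UMIs per clone cell and a median of 6. It was in 94.8% of clone cells and 39.9% of comparison cells. Lag3 was 5.84 times as high (4.59 to 7.47), Tigit 5.30, Ctla4 3.63 and Cd200r1 3.77. Entpd1, the ectoenzyme CD39 that degrades extracellular ATP, had a ratio of 3.32, Lilrb4a one of 2.80 and Cd244a one of 2.10. The lower members were Cd160 (0.369), Btla (0.388) and Klrg1 (0.447), the last known from short-lived effector cells.

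Among regulators of exhaustion and of IL-10, 8 of the 15 members that passed the level filter were at least 2-fold higher and 1 lower. Among all genes 4.97% were higher and 5.33% lower. The filter can be passed through the clone alone, so those counts are a description. Tox, the regulator that sets up exhaustion, stood at 1141 against 448 CPM and was in 98.7% of clone cells, and its relative Tox2 at 94.1 against 9.78 CPM. Maf, which drives Il10 transcription in several T cell types, was at 282 against 68.5 CPM, or 4.12 times as high (3.28 to 5.19). Prdm1 (Blimp-1), a further regulator of Il10 and of effector differentiation, had a ratio of 2.09, Batf one of 2.04 and Ikzf2 (Helios) one of 3.29. Il21r, the receptor for the T helper cytokine IL-21, stood at 2.95 and Id2 at 2.08. Id3, a partner of Tcf7 in progenitor cells, had 1 UMI in the clone against 73. Ahr, another regulator of Il10, had only 6 UMIs in the clone, and Eomes (1.23), Stat3 (1.36) and Bhlhe40 (1.21) lay within 2-fold.

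Each of the 13 naive and progenitor genes that passed the level filter was at least 2-fold lower in the clone, with a median log2 ratio of -2.58. The filter can be passed through the comparison cells alone, so that count is a description. Tcf7, the factor of T cells that keep the ability to renew, had 8 UMIs in 3 of 77 clone cells and 540 UMIs in 170 of 243 comparison cells, or 11.1 against 293 CPM. It overlaps Skp1 in the gene table. Lef1 (0.0509), Satb1 (0.0950), S1pr1, the receptor for leaving tissue (0.168), Slamf6 (0.225), Bach2 (0.279), Klf2 (0.368), Klf3 (0.386) and Foxp1 (0.440) were lower as well. Xcl1, a chemokine of progenitor-type exhausted cells, had 4 against 230 UMIs, a ratio of 0.0443.

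Of 15 cytotoxic genes that passed, 7 were at least 2-fold higher, 2 at least 2-fold lower and 6 between. Among all genes 4.97% were higher and 5.33% lower. Without Gzmk, which chose the comparison cells, 6 of 14 were higher, with a median log2 ratio of 0.88. Granzyme B (Gzmb) stood at 2311 against 343 CPM and was in 77 of 77 clone cells, with 1 to 98 UMIs and a median of 16. Granzyme A (Gzma) was 3.30 times as high but uneven, with 25 clone cells at 0 and a highest count of 139. Gzmk stood at 1585 against 582 CPM, with 3 to 61 UMIs per clone cell (median 12) against a median of 3. The pore-forming perforin (Prf1) had a ratio of 2.25, Nkg7 of 2.53, Serpinb6b of 2.55 and the cathepsin inhibitor Cst7 of 4.02. Granzyme M (Gzmm) went the other way, with 1 UMI in the clone against 111, and Lamp1, the marker of released granules, stood at 0.439.

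Cytokines split. Besides Il10, Csf1, the growth factor of macrophages, was higher at 62.2 against 5.98 CPM, a ratio of 10.4 (5.30 to 22.3). Ifng differed little, with 180 against 136 CPM and a ratio of 1.32 (1.06 to 1.64). Tnf was lower at 6.92 against 36.4 CPM, and Ltb at 224 against 728 CPM. No UMI of Il2, Il4, Il5, Il13, Il17a, Il22 or Csf2 was counted in the clone, where the floor of 3 counts is 4.15 CPM and the exact upper limit 5.10 CPM. Among chemokines, Ccl3 (1369 against 140 CPM) and Ccl4 (3709 against 372 CPM), chemokines that draw in other leukocytes, were 9.81 and 9.98 times as high. The gene table lists them as overlapping, and single clone cells held 14.7% of the UMIs of each. Ccl5 was 2.79 times as high, at 47500 against 17020 CPM.

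**Figure D3:**
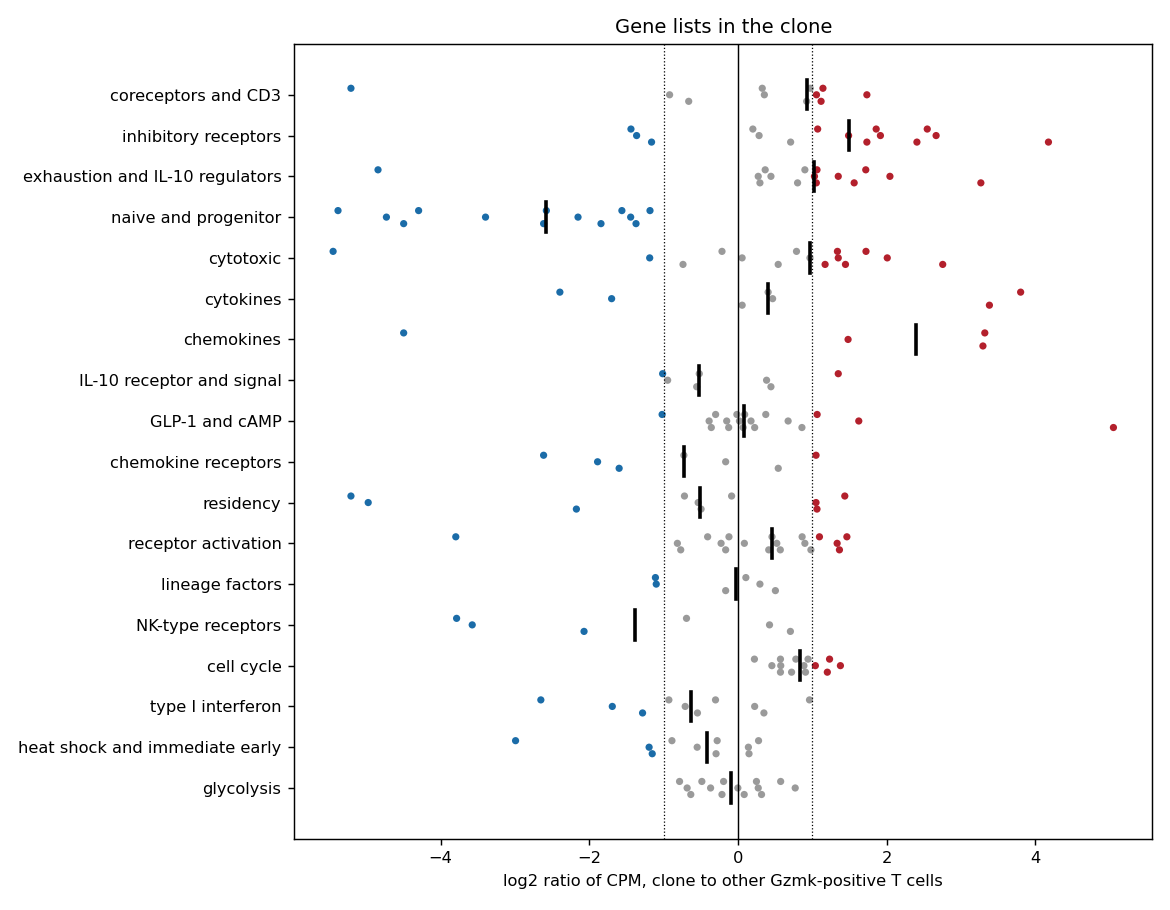
Log2 ratio of CPM, clone to other WT HFD Gzmk-positive T cells, for members of 18 gene lists that passed the level filter. Each point is a gene, red at least 2-fold higher, blue at least 2-fold lower, and the black bar is the list's median, which lies at 1.49 for inhibitory receptors and -2.58 for naive and progenitor genes.

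Of the receptor and signalling genes of IL-10 and GLP-1 that passed, 5 of 7 and 14 of 18 lay within 2-fold. In the IL-10 list 1 of 7 was higher and 1 lower, and in the GLP-1 list 3 of 18 were higher and 1 lower. Among all genes 4.97% were higher and 5.33% lower. Without Glp1r, which chose the clone, 2 of 17 in the GLP-1 list were higher and 1 lower. Il10ra, the IL-10 receptor chain that binds the cytokine, was at 378 against 148 CPM, or 2.55 times as high (2.14 to 3.02), while Il10rb had a ratio of 0.680 and Socs3, a target of IL-10 signalling, one of 0.495. Stat3 and Jak1 lay within 2-fold. In the GLP-1 and cyclic AMP list 3 genes were higher, namely Glp1r, Prkaca (2.09) and the prostaglandin receptor Ptger2 (3.08), and 1 lower, Pde7a (0.493). Gnas, the G protein subunit that couples the receptor to cyclic AMP, stood at 934 against 721 CPM. Dpp4, whose product cleaves GLP-1, stood at 56.7 against 63.0 CPM. The related receptors Gipr and Gcgr and the hormone gene Gcg had 0 UMIs in both groups, and Rapgef3 and Rapgef4 had 0 in the clone.

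Homing and residency genes were divided. Cxcr6, the receptor that holds T cells in liver sinusoids, stood at 450 against 217 CPM, and Rgs1 at 562 against 207 CPM. Prdm1, a factor of effector and resident cells, had a ratio of 2.09. Itga1 had 1 against 94 UMIs, P2rx7 1 against 80, and Itgb1 a ratio of 0.222. Itgae, the residency integrin of epithelia, had 1 UMI. Among chemokine receptors Ccr7 (0.163), Cxcr4 (0.270) and Ccr2 (0.330) were lower, and 1 cell held 95.2% of the clone's Ccr2.

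Genes of recent receptor stimulation were mixed. Of 19 that passed the level filter, 4 were at least 2-fold higher and 1 lower, against 4.97% and 5.33% of all genes. The higher ones were Tnfrsf9 (4-1BB, 180 against 65.2 CPM), Tnfrsf18 (2.14), Irf8 (2.52) and Nr4a1 (2.57), with 1 cell holding 40.2% of the clone's Nr4a1. The lower one was Cd226 (0.0720). Nr4a2 (1.82) and Egr1 (0.919) lay within 2-fold, as did Cd69 (0.607) of the residency list. Cd40lg, which did not pass the filter, had 0 UMIs against 60. The lineage factors Tbx21 (T-bet, 0.467) and Hopx (0.463) were lower, as were the NK-type receptors Klrk1 (0.0726), Klrc1 (0.238) and Klre1 (0.0839). Of 10 heat shock and immediate early genes that passed, 3 were lower, Jun (0.126), Fosb (0.436) and Junb (0.449), and 3 of 10 interferon genes that passed were lower, Irf7 (0.310), Ifit3 (0.159) and Rtp4 (0.411). Among all genes 5.33% were lower. Glycolysis genes gave 0 of 14 past 2-fold in either direction.

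Cell cycle genes were at least 2-fold higher in 4 of 14 members, against 4.97% of all genes: Mki67 (2.35), Top2a (2.06), Cdk1 (2.60) and Ube2c (2.30). Against the 174 CD8 comparison cells, 1 of the 14 was at least 2-fold higher, beside 5.59% of all genes. There, 8 inhibitory receptors were higher, and 13 naive and progenitor genes were lower beside 5.64% of all genes. In that comparison the Il10 ratio was 20.2 and the Glp1r ratio 34.1.

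Within the clone, in a split chosen after seeing the data, 26 cells had a Mki67 UMI (median 9683 UMIs) and 51 did not (median 7011). Il10 stood at 67.8 CPM in the first and at 206 CPM in the second, a ratio of 0.330 (0.196 to 0.533), although it was detected in 50% and 39.2% of the cells. The 4 cells with the most Il10 all lacked Mki67 and held 53 of the 82 Il10 UMIs of the second set; without them the levels were 67.8 and 79.5 CPM, a ratio of 0.853 with an interval that includes 1 (0.467 to 1.54). Glp1r stood at 43.2 and 62.7 CPM, a ratio of 0.688 with an interval that includes 1 (0.331 to 1.38). Lag3 (0.582) and Ccl5 (0.537) were lower in the cells with Mki67, while Gzmk (0.981), Tox (0.942) and Havcr2 (0.916) had intervals that include 1. Il10 and Glp1r were detected together in 10 clone cells, where 10.7 would be found if they were independent. A further 23 cells had Il10 alone, 15 Glp1r alone and 29 neither. With at most 3 Glp1r UMIs in a cell, a cell at 0 may still express it.

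The clone was then set beside other expanded cells. The 3 libraries held 39 other clonotypes of at least 8 kept cells, of 8 to 39 cells each. Il10 was at 0 UMIs in 32 of them and Glp1r in 34, and none reached the clone's level of either gene, of Havcr2 or of Lag3. In other genes some did. A CD4 clonotype of WT HFD+HDCA lay above the clone in Tigit (800 against 711 CPM) and Tox2 (102 against 94.1 CPM). A CD8 clonotype of that library did so in Ms4a4a (193 against 144 CPM). Their intervals for these genes overlap the clone's. For Gzmb 3 iNKT KO clonotypes lay above it (up to 2907 against 2311 CPM), and for Gzma 4 clonotypes did. Because the clone was singled out for its Il10 and Glp1r levels, its place above the others in these genes was built into the choice. The counts for them are a description. For Il10 the interval lay wholly below the clone's in 38 of the 39, for Havcr2 in 39 and for Lag3 in 36. For Glp1r it did so in 9, and in 8 the floor of 3 counts was above the clone's level, so most of these clonotypes were too small to show a Glp1r difference. The highest Il10 among them was 37.6 CPM, from 2 UMIs, and the highest Glp1r 18.8 CPM, from 1 UMI. Both were in the third WT HFD clonotype (12 cells, TRAV12-1/TRAJ33 and TRBV3/TRBJ2-3), the exception to the 38 for Il10. Its intervals, 4.555 to 136 CPM for Il10 and 0.476 to 105 CPM for Glp1r, overlap the clone's. A difference from the clone was thus not resolved in either gene. That CD8 clonotype was near the clone in Pdcd1 (771 CPM) and Tox (1185 CPM), with Coch at 113 CPM. Its Ccl3 (2784 CPM) came from 4 of 12 cells and its Ccl4 (6677 CPM) from 3 of 12, against 71 and 74 of 77 clone cells. It had Gzmb at only 188 CPM and Tcf7 at 150 CPM. Tcf7 was lower in the clone (4.78 to 21.8 CPM) than in any of the 39, whose lowest value was 52.6 CPM, from 3 UMIs. The interval of that value (10.8 to 154 CPM) and that of an iNKT KO clonotype at 54.7 CPM (17.75 to 128 CPM) overlap the clone's.

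**Figure D4:**
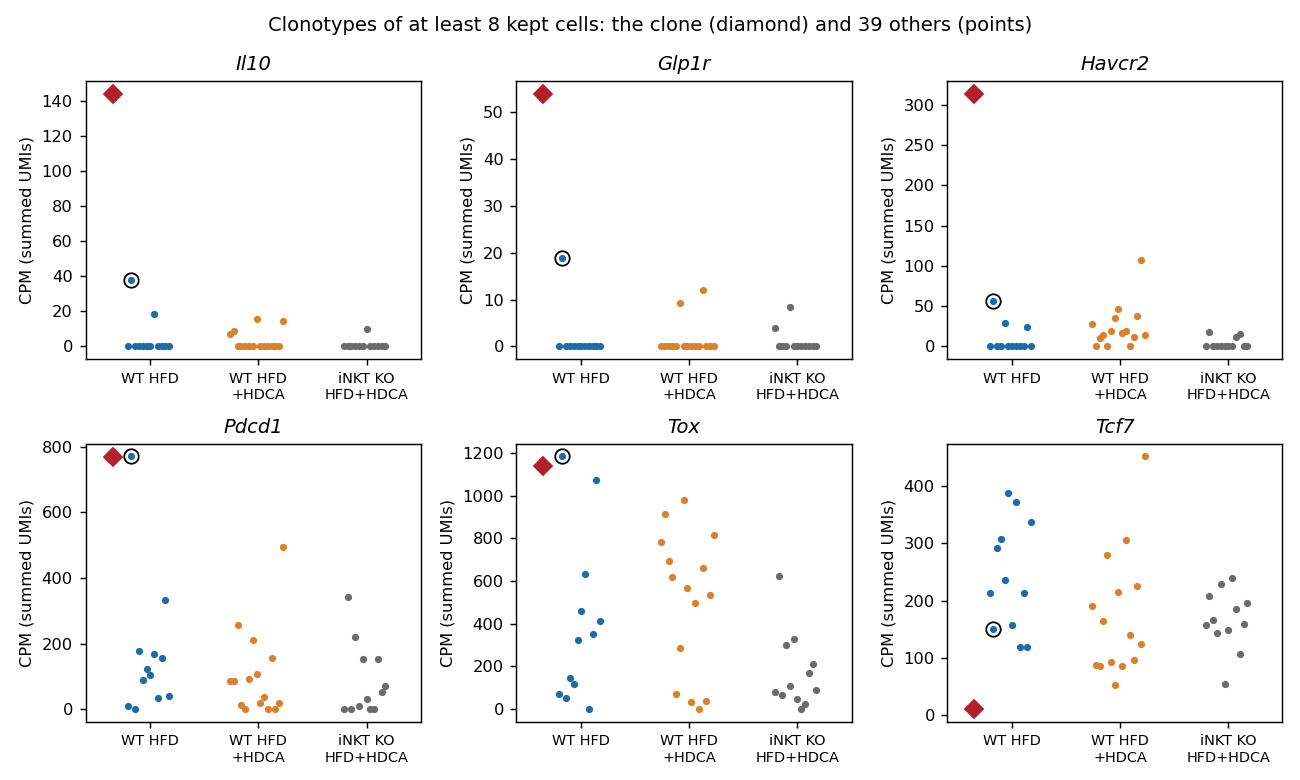
Summed level (CPM) of 6 genes in the clone (red diamond) and in 39 other clonotypes of at least 8 kept cells (points, 1 per clonotype) in the 3 libraries; the circled point is the third WT HFD clonotype. The clone lies above all points for Il10, Glp1r and Havcr2, beside the circled point for Pdcd1 and Tox, and below all points for Tcf7. Il10, Glp1r and Pdcd1 were among the genes that chose the clone.

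The fourth WT HFD clonotype, also of 12 CD8 cells, used the clone's V segments TRAV7-5 and TRBV13-3 with other J segments (TRAJ9 and TRBJ2-7). It had 0 UMIs of Il10, Glp1r, Pdcd1 and Havcr2, with Tcf7 at 291 CPM and Il7r at 280 CPM. With 92827 UMIs summed, a gene at 0 there has an exact upper limit of 39.7 CPM. That limit is below the clone's interval for Il10, Pdcd1 and Havcr2 and within it for Glp1r, so a difference in Glp1r was not detectable at this depth.

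In the other libraries, Gzmk-positive T cells had Il10 at 5.59 CPM (3.46 to 8.55, 516 cells of WT HFD+HDCA) and 6.74 CPM (3.59 to 11.5, 259 cells of the iNKT KO library). Outside the clone WT HFD stood at 10.3 CPM (6.21 to 16.1), and the intervals overlap. Glp1r stood at 1.60 and 1.04 CPM, against 1.63 CPM. T cells outside the clone with both Pdcd1 and Havcr2 UMIs were few: 13 from WT HFD, 36 from WT HFD+HDCA and 13 from the iNKT KO library. Their Il10 stood at 28.7, 100 and 73.5 CPM, the second from 33 UMIs in 2 cells and the third from 10 UMIs in 2 cells. Their Glp1r stood at 7.19 CPM (1 UMI), 6.06 CPM (2 UMIs in 1 cell) and 0. Set against the 13 such WT HFD cells, a comparison added after seeing the data, the clone's ratio was 5.005 for Il10 (1.90 to 18.7). For Glp1r it was 7.51 (1.27 to 304), resting on 1 UMI in those cells. Both intervals are wide. Diet with HDCA and genotype could not be related to the clone, since a clone private to 1 library and the group of that library cannot be told apart.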

How the data were processed

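The authors deposited whole-number UMI counts per gene and barcode, and contig tables with UMI counts per chain; per the file headers they were made with Cell Ranger 8.0.1. The submitters' processing notes name both mm10 and GRCm39, so no coordinates are given. Kept cells had 200 genes or more and less than 10% mitochondrial UMIs. Scrublet doublet calls (scanpy 1.11.5), 243 in WT HFD with 6 of them members, were removed. UMIs were summed per group and scaled to CPM. Intervals are conditional exact for ratios, exact Poisson for levels and Clopper-Pearson for shares. The floor was 3 counts. With 1 library per group no test was run. B cells had Cd79a and Ms4a1 UMIs, monocytes and macrophages Lyz2 and Csf1r UMIs, and NK cells Ncr1 and Klrb1c UMIs, all without a TCR contig. Genes named had a mean of at least 40 CPM, UMIs in at least 20% of the higher group's cells and no cell with over 25% of its UMIs, and were the 15 highest and 10 lowest ratios, without TCR, immunoglobulin, ribosomal and unnamed genes. List members at a mean of at least 20 CPM and past 2-fold were also named, except some not reported here. Members and lists were chosen with earlier results of these data known. Gene overlaps come from the RefSeq GRCm38.p6 table. The contrast was run on simulated Poisson counts with planted changes larger than 2-fold. Those counts lack the uneven spread among cells of the real data.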

Additional observations from a re-analysis of the deposited data

How the results depend on the processing

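Of 68 values recomputed, 53 stayed within the main interval (counts: within 1.5 times), 15 moved and 0 reversed; a further 7 repeated the main analysis, since every member had a Gzmk UMI and at least 2 UMIs on every contig. Dropping the Gzmk requirement (2076 comparison cells) gave ratios of 66.4 (Il10), 30.8 (Pdcd1) and 31.8 (Lag3) and 624 genes higher. Comparison cells in clonotypes of at least 2 gave an Il10 ratio of 28.6. Thinning to 2000 UMIs gave a Glp1r ratio of at least 6.29 (exact lower limit 3.7), 581 genes higher and 805 lower. Comparison cells with Pdcd1 and Havcr2 UMIs, chosen after seeing the data, gave 5.005 (Il10, 1.90 to 18.7) and 7.51 (Glp1r, 1.27 to 304). Without the 4 clone cells with the most Il10, also chosen after seeing the data, the Il10 ratio was 7.17. A mean of at least 50 CPM gave 160 genes higher and 132 lower, and at least 3 UMIs in either group 1302 and 1335. Without cells holding B cell or monocyte UMIs, also chosen after seeing the data, 325 genes were higher and 404 lower. The clone's size was 76 to 83 cells under its 4 alternatives. No paired analysis was possible because each group had 1 library.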

Other observations

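Some segment counts in the RNA library went beyond the assembled receptor. The clone's cells had 0 UMIs of Trav7d-2, although 82 of 83 members carried that chain as a contig. Trbj2-6 had 140 UMIs in 57 clone cells, or 194 CPM against 17.4 CPM in other Gzmk-positive T cells, a ratio of 11.1 (7.54 to 16.9), whereas the assembled chain used TRBJ1-4. Trbv13-2 had 155 UMIs in 56 clone cells. Its level was not raised there, at 214 CPM against 258 CPM, a ratio of 0.831 (0.689 to 0.998). Trbc2 had 776 UMIs and Trbc1 380 UMIs in the clone, while all 83 TRB contigs were assigned to TRBC1. The cause was not tested. The ratios of Trbc1 and Trbc2 given above rest on these counts, and segments at a mean of at least 20 CPM were among the 6359 genes.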
